A study of Mus musculus with 6 samples.

Results

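The genes described here are the enzymes and carriers that burn fatty acids in mitochondria and handle ketone bodies, in gonadal white adipose tissue (GWAT) of mice. They were taken from a fixed list of 33 genes, namely the carnitine system, the acyl-CoA dehydrogenases, the later enzymes of beta-oxidation, the electron transfer flavoproteins, mitochondrial thioesterases, enzymes of ketone use and malonyl-CoA decarboxylase. Of these, 32 of the 33 had a probeset of their own among 19937 measured genes. The GWAT came from chow-fed male mice aged 4 months, either *ob/ob* (leptin deficient) or *ob/ob/Fsp27-/-* (deficient in leptin and in Fsp27), so that both genotypes lack leptin. According to the methods, the mice were on a C57BL/6J background, the *Fsp27* mutation was carried in the whole animal, and RNA of 3 mice was pooled for every array, while the labels do not mention pooling. There were 3 arrays per genotype, called arrays 1, 2 and 3 below in the order of the samples, and n counts arrays throughout.

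Fsp27, or Cidec, sits at contacts between lipid droplets and helps them fuse, and fat cells of mice that lack it hold many small droplets. Long-chain fatty acids enter mitochondria as carnitine esters, which Cpt1 makes on the outer membrane and Cpt2 turns back into acyl-CoA on the inner side. Each round of beta-oxidation then shortens the chain through a dehydrogenation, a hydration, a second dehydrogenation and a thiolytic cut, and the electrons of the first dehydrogenation pass through the electron transfer flavoproteins to coenzyme Q. White adipocytes release most of their fatty acids for other tissues, whereas brown adipocytes burn them.

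Expression was measured on the GeneChip Mouse Gene 1.0 ST Array, and values are log2 values that the authors made by RMA (robust multi-array averaging). Differences are *ob/ob/Fsp27-/-* minus *ob/ob*, and a call needed a limma p under 0.05 after Benjamini-Hochberg adjustment over the tested probesets and a log2 difference of 0.5 or more in size. Levels of different genes are not compared, since probesets differ in sensitivity. *Cidec*, the gene of Fsp27, had means of 11.75 (*ob/ob*) and 11.46 (*ob/ob/Fsp27-/-*) and was not called (limma adjusted p = 0.157), and the place of its probes relative to the deletion is not given in the sources used here, so it does not check the labels. Pearson's r between arrays, taken over probesets that are no independent replicates, was 0.986 to 0.992 within the genotypes and 0.947 to 0.968 between them. The 16 measured adipocyte markers had a mean of 10.76 on *ob/ob* array 1, against 11.28 and 11.49 on the other *ob/ob* arrays, and array 1 was the lowest *ob/ob* array for most of the genes described here as well. The 12 skeletal muscle markers had list means between 5.42 and 5.75 on every array, and none of the 10 epididymis markers reached the median of all values (6.07).

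Of the 32 measured genes, 28 were higher in *ob/ob/Fsp27-/-* than in *ob/ob* mice and none was lower. Over all genes, 9.58% were called higher and 10.8% lower, 20.4% in all. The median log2 fold change of the 32 genes was 1.01, compared with 0.0577 over all genes, and 17 of them were higher by at least 1 and none lower by as much, against 3.27% and 4.79% of all genes. For the same 28 genes the *ob/ob/Fsp27-/-* arrays all lay above the *ob/ob* arrays, a pattern seen in 25.3% of all genes. The 4 genes that were not called were *Cpt1a*, *Cpt1c*, *Acot9* and *Bdh1*. In bulk tissue, a change in the number of cells of a type and a change in RNA per cell cannot be told apart.

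**Figure D1:**
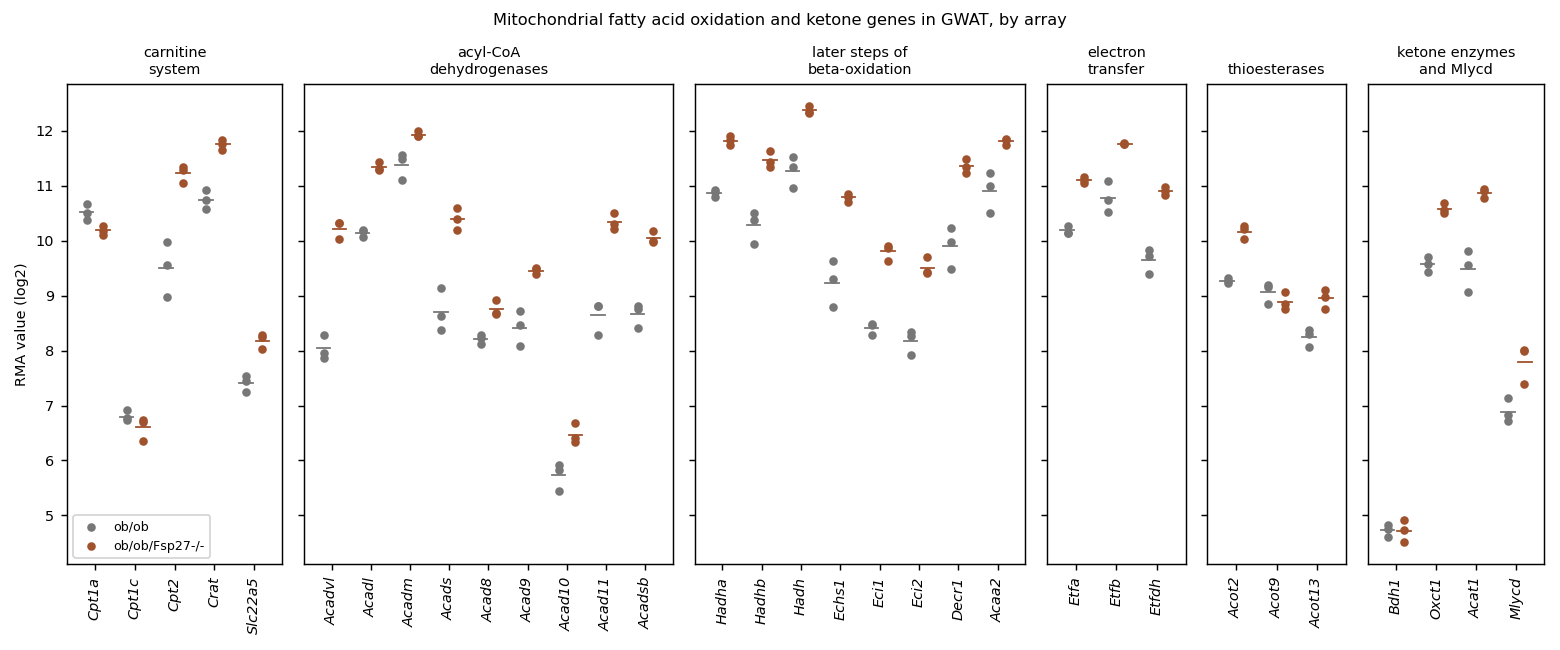
RMA values (log2) of the 32 measured genes by role, with 1 point per array, in grey (*ob/ob*) or brown (*ob/ob/Fsp27-/-*), and short lines at the genotype means (n = 3 arrays). The brown points lie above the grey ones in 28 genes, below them in *Cpt1a*, and among them in *Cpt1c*, *Acot9* and *Bdh1*.

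In the carnitine system, 3 of 5 measured genes were higher. *Cpt2*, the acyltransferase of the inner membrane, read 8.97, 9.56 and 9.97 on the *ob/ob* arrays and 11.06, 11.29 and 11.35 on the *ob/ob/Fsp27-/-* arrays. The *ob/ob* arrays were spread widely, and all of them lay below the other genotype. Its mean was 9.50 ± 0.501 (SD, n = 3) with Fsp27 and 11.23 ± 0.154 (SD, n = 3) without Fsp27, which is 1.73 higher or 3.32-fold (standard error, SE, 0.237, limma adjusted p = 0.00186), and 99 genes of all those measured had a larger increase. *Crat*, which attaches acetyl and other short acyl groups to carnitine, had a log2 fold change of 1.01 (SE 0.110), and *Slc22a5*, the plasma membrane carnitine transporter OCTN2, 0.77 (SE 0.110). *Cpt1a*, the isoform of the outer membrane enzyme known from liver and the step that malonyl-CoA inhibits, was not called. It read 10.67, 10.51 and 10.38 on the *ob/ob* arrays and 10.11, 10.18 and 10.27 on the *ob/ob/Fsp27-/-* arrays. The genotypes did not overlap, and every *ob/ob* array was the higher, a pattern seen in 20.7% of all genes. The means of *Cpt1a* were 10.52 ± 0.147 (SD, n = 3) with Fsp27 and 10.19 ± 0.0785 (SD, n = 3) without it. Its log2 fold change of −0.33 (95% interval −0.57 to −0.10, limma adjusted p = 0.0428) passed the p threshold and not the fold threshold. *Cpt1c*, an isoform best known from the brain, read 6.91, 6.77 and 6.73 in *ob/ob* and 6.74, 6.70 and 6.36 in *ob/ob/Fsp27-/-* mice, which overlap (log2 fold change −0.21, 95% interval −0.49 to 0.08, limma adjusted p = 0.258).

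*Cpt1b*, the isoform of muscle and brown fat, has no probeset of its own in the table. The probeset that carries its symbol also carries that of the predicted gene *Gm44502*, so its values cannot be given to either gene. This shared probeset read 6.89, 7.31 and 7.94 on the *ob/ob* arrays and 10.19, 10.49 and 10.62 on the *ob/ob/Fsp27-/-* arrays. Its log2 fold change was 3.06 (SE 0.258, limma adjusted p = 0.000261), larger than that of any of the 32 genes.

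Since most of these genes were higher, their promoters were searched for short motifs of regulators of mitochondrial genes. RefSeq promoter windows (GRCm38.p6, 250 bases before to 50 after the annotated start) were used for 26 of the 33 genes, in 27 windows. *Crat*, *Acad9*, *Decr1*, *Acaa2*, *Acot13*, *Acat1* and *Cpt1b* are not among them. The windows of *Acadvl* and *Cpt2* are shown because these genes had the largest increases, that of *Cpt1a* because its mean was lower, and that of *Hadha* because it overlaps the window of *Hadhb*. In the first of these, *Acadvl* at chr11:70015379-70015678 on the minus strand, and in *Cpt1a* at chr19:3323051-3323350 on the plus strand, capitals mark AGGTCA, the core bound by many nuclear receptors, or its reverse complement. In *Cpt2* at chr4:107923540-107923839 on the minus strand they mark CCGGAAG, a core of GABP and other ETS factors, or its reverse complement. *Hadha* at chr5:30154931-30155230 on the minus strand holds none of the motifs searched and has no capitals. All are written 5′ to 3′ on the gene's strand.
Acadvl: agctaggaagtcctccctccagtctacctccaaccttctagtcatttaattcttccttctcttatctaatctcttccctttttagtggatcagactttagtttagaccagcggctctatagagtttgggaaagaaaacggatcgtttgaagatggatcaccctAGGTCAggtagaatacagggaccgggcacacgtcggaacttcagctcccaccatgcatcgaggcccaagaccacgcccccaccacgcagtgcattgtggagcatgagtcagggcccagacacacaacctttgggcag
Cpt1a: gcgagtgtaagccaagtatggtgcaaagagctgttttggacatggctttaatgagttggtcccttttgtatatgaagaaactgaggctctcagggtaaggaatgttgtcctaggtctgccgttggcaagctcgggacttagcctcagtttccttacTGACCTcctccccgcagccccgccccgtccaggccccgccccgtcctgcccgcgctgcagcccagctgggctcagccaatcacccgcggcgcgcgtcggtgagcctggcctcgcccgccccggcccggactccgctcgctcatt
Cpt2: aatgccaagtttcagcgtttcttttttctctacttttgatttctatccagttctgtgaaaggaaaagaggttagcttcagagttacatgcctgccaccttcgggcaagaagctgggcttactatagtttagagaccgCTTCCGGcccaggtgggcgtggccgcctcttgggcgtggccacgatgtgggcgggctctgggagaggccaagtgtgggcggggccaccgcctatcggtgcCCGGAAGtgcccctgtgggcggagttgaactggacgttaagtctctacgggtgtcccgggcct
Hadha: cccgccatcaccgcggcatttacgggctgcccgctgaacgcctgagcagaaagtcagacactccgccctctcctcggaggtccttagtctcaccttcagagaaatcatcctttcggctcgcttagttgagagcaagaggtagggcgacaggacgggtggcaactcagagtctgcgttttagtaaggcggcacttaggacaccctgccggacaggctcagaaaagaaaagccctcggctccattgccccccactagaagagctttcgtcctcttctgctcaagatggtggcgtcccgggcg

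AGGTCA was found on either strand in 18.5% of the 27 windows, those of *Cpt1a*, *Cpt1c*, *Acadvl*, *Acadm* and *Echs1*, and in 16.3% of all 32851 windows. It begins at position −87 from the start in *Acadvl* and at −94 in *Cpt1a*, so the core was present both in the gene with the largest increase and in the gene with the lowest log2 fold change. The direct repeat of AGGTCA, any base and AGGTCA contains the core and is the element of PPAR and RXR dimers. It was in none of the 27 windows and in 0.0396% of all windows. TNAAGGTCA, the element of the estrogen-related receptors, contains the core too, and was in none and in 1.28%. At such low shares, 27 windows were likely to hold neither element, so no conclusion is drawn from these absences. GCGCA followed by any base and GCGC, the site of NRF1, was in 14.8% of the windows, those of *Slc22a5*, *Acad10*, *Etfb* and *Etfdh*, and in 4.60% of all windows. CCGGAAG was in 7.41%, those of *Cpt2* and *Mlycd*, and in 8.86% of all windows. The windows had a median GC content of 60.7%, against 52.7% over all windows. These matches describe the letters of the windows and no binding was measured.

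All 9 acyl-CoA dehydrogenase genes were higher. *Acadvl*, which starts beta-oxidation of the longest chains, read 7.87, 7.96 and 8.29 on the *ob/ob* arrays and 10.03, 10.32 and 10.32 on the *ob/ob/Fsp27-/-* arrays. Every *ob/ob/Fsp27-/-* array lay above every *ob/ob* array, with a wide gap between them. The log2 fold change of 2.18, or 4.53-fold (SE 0.138, limma adjusted p = 9.56e-05), was exceeded by 46 of the 19937 genes (0.231%). *Acadl* and *Acads*, which act on long and short chains, rose by 1.20 and 1.68 on the log2 scale (SEs 0.0820 and 0.203). *Acadm*, the medium-chain enzyme, read 11.10, 11.48 and 11.56 in *ob/ob* and 11.90, 11.91 and 11.99 in *ob/ob/Fsp27-/-* mice. Its mean went from 11.38 ± 0.251 (SD, n = 3) to 11.93 ± 0.0480 (SD, n = 3), the smallest increase of the family at 0.55 (SE 0.130, limma adjusted p = 0.0178). The log2 fold change of *Acadm* was 0.41 without *ob/ob* array 1, below the fold threshold. Without *ob/ob/Fsp27-/-* array 2 or 3 it was 0.56 or 0.52, close to the value from all arrays, with a limma adjusted p of 0.0551 or 0.057 from the smaller number of arrays.

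The other members of the dehydrogenase family work beside the beta-oxidation of straight chains. *Acadsb* and *Acad8*, which act on breakdown products of branched-chain amino acids, had log2 fold changes of 1.39 (SE 0.123) and 0.55 (SE 0.0990). *Acad8* read 8.12, 8.23 and 8.28 against 8.67, 8.92 and 8.68, and its log2 fold change fell to 0.47 without *ob/ob/Fsp27-/-* array 2, below the fold threshold. *Acad9*, which also serves the assembly of respiratory complex I, had a log2 fold change of 1.03 (SE 0.157). *Acad11* rose from 8.29, 8.82 and 8.82 to 10.21, 10.31 and 10.50, with a log2 fold change of 1.70 (SE 0.162). *Acad10* was higher by 0.74 (SE 0.152) at levels near the median of all values, with 5.45, 5.83 and 5.92 in *ob/ob* and 6.40, 6.68 and 6.33 in *ob/ob/Fsp27-/-* mice.

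The later steps of beta-oxidation were higher in all 8 genes, with log2 fold changes from 0.90 to 1.54. *Echs1*, the short-chain enoyl-CoA hydratase, read 8.80, 9.30 and 9.63 on the *ob/ob* arrays and 10.70, 10.80 and 10.85 on the *ob/ob/Fsp27-/-* arrays. Here the *ob/ob* arrays were spread widely, and those of the other genotype lay close together. It showed the largest increase of the group, 1.54 or 2.91-fold (SE 0.197, limma adjusted p = 0.00138). *Hadha* and *Hadhb* encode the subunits of the trifunctional protein, which carries out the last 3 steps on long chains. *Hadha* read 10.80, 10.89 and 10.93 against 11.74, 11.83 and 11.90, and *Hadhb* 9.95, 10.37 and 10.51 against 11.35, 11.43 and 11.63. Their log2 fold changes were 0.95 (SE 0.0817) and 1.19 (SE 0.156). *Hadha* and *Hadhb* are transcribed in opposite directions, their annotated starts lie 273 bases apart, and 228 bases of their promoter windows overlap. *Hadh*, the dehydrogenase of short and medium hydroxyacyl chains, had a log2 fold change of 1.10 (SE 0.145). *Acaa2*, the thiolase of the mitochondrial matrix, read 10.50, 11.00 and 11.23 in *ob/ob* and 11.75, 11.85 and 11.83 in *ob/ob/Fsp27-/-* mice and had the smallest increase of the group (0.90, SE 0.176, limma adjusted p = 0.00815). The auxiliary enzymes that deal with double bonds of unsaturated fatty acids were higher as well, namely the isomerases *Eci1* (1.39, SE 0.106) and *Eci2* (1.34, SE 0.139) and the dienoyl-CoA reductase *Decr1* (1.46, SE 0.186).

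All 3 genes of electron transfer from these dehydrogenases were higher. *Etfa* and *Etfb* encode the subunits of the electron transfer flavoprotein, and *Etfdh* the membrane enzyme that hands its electrons to coenzyme Q. *Etfdh* read 9.40, 9.83 and 9.73 on the *ob/ob* arrays and 10.83, 10.91 and 10.97 on the *ob/ob/Fsp27-/-* arrays, a log2 fold change of 1.25 (SE 0.121, limma adjusted p = 0.000439). *Etfa* read 10.15, 10.27 and 10.15 against 11.16, 11.05 and 11.10, the smallest increase of the group (0.91, SE 0.0787, limma adjusted p = 0.000285). *Etfb* had a log2 fold change of 0.99 (SE 0.138), and its *ob/ob/Fsp27-/-* arrays lay close together, at 11.77, 11.76 and 11.78.

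Mitochondrial thioesterases split acyl-CoA into free fatty acid and CoA. *Acot2*, which acts on long chains in the matrix, read 9.27, 9.32 and 9.23 in *ob/ob* and 10.21, 10.03 and 10.26 in *ob/ob/Fsp27-/-* mice, with a difference of 0.89 (SE 0.0879, limma adjusted p = 0.000476). *Acot1*, its close cytosolic paralogue, read 5.07 ± 0.310 (SD, n = 3) and 5.24 ± 0.278 (SD, n = 3) on its own probeset and was not called (log2 fold change 0.18, limma adjusted p = 0.547), and how far the probes of each gene also bind the other's transcript is not given in the sources used here. *Acot13* had a log2 fold change of 0.70 (SE 0.127). *Acot9* did not follow, with 8.85, 9.19 and 9.16 on the *ob/ob* arrays and 8.76, 8.84 and 9.06 on the *ob/ob/Fsp27-/-* arrays. The genotypes of *Acot9* overlapped, and its log2 fold change of −0.18 (95% interval −0.47 to 0.12, limma adjusted p = 0.344) did not pass. With the arrays centred on housekeeping genes its log2 fold change was 0.01.

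Of the enzymes of ketone use, *Oxct1* and *Acat1* were higher and *Bdh1* was not called. Ketone use begins with the oxidation of hydroxybutyrate by Bdh1, Oxct1 then transfers CoA to acetoacetate, and Acat1 cuts acetoacetyl-CoA into acetyl-CoA. *Acat1*, which also serves the breakdown of isoleucine, read 9.06, 9.56 and 9.82 on the *ob/ob* arrays and 10.78, 10.90 and 10.94 on the *ob/ob/Fsp27-/-* arrays (log2 fold change 1.39, SE 0.184, limma adjusted p = 0.00164). *Oxct1* read 9.44, 9.70 and 9.58 against 10.50, 10.56 and 10.69, a log2 fold change of 1.01 (SE 0.0979, limma adjusted p = 0.000437). *Bdh1* read 4.83, 4.75 and 4.61 in *ob/ob* and 4.51, 4.91 and 4.73 in *ob/ob/Fsp27-/-* mice. All its values lay below the median of all values, and the genotypes overlapped. Its log2 fold change was −0.01 (95% interval −0.30 to 0.27, limma adjusted p = 0.943). *Mlycd*, which removes malonyl-CoA, the inhibitor of Cpt1, read 6.72, 6.82 and 7.13 against 7.39, 8.02 and 7.99 and was higher by 0.91 (SE 0.193, limma adjusted p = 0.0117).

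**Figure D2:**
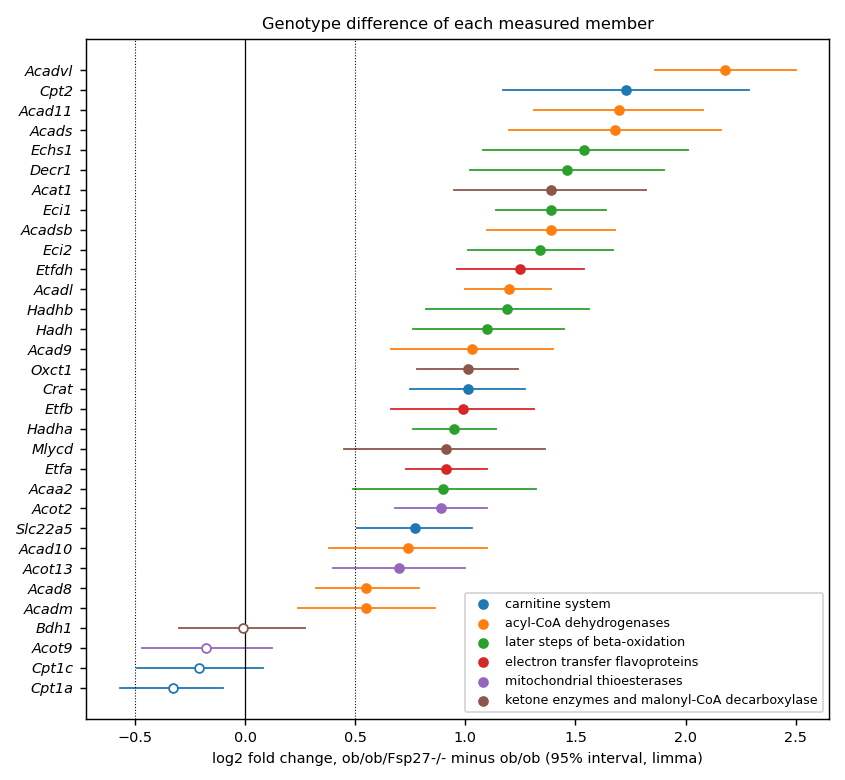
Log2 fold change of *ob/ob/Fsp27-/-* over *ob/ob* GWAT for the 32 measured genes, with 95% intervals from limma (3 arrays per genotype), coloured by role. Filled points were called and open points were not, dotted lines mark the fold threshold of 0.5 in either direction, and the values run from −0.33 for *Cpt1a* to 2.18 for *Acadvl*.

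Whether partners of the same pathway changed by unequal amounts was examined on the difference of both genes within each array, for 8 pairs. With 3 arrays per genotype, the exact two-sided permutation test cannot go below p = 0.1, and after adjustment over the 8 pairs the lowest p was 0.133, so no pair could pass. The difference *Cpt2* minus *Cpt1a* was −1.70, −0.96 and −0.41 on the *ob/ob* arrays and 0.95, 1.11 and 1.08 on the *ob/ob/Fsp27-/-* arrays, a shift of 2.07 (exact permutation p = 0.1). *Acadm* minus *Acadl* went from 1.04, 1.29 and 1.38 to 0.60, 0.62 and 0.56 (exact permutation p = 0.1). *Acot2* minus *Acot9* shifted by 1.07 with no overlap between the genotypes (exact permutation p = 0.1). *Bdh1* minus *Oxct1* shifted by −1.02 (exact permutation p = 0.1), which is the increase of *Oxct1* set against a probeset below the median of all values on every array. *Acadvl* minus *Acads* shifted by 0.50 and *Hadha* minus *Hadhb* by −0.24, also without overlap (exact permutation p = 0.1 for each). The subunits *Etfa* and *Etfb* kept overlapping differences (shift −0.07, exact permutation p = 0.8), as did the isomerases *Eci1* and *Eci2* (shift 0.05, exact permutation p = 0.6).

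Within the genotypes the genes moved together from array to array. *ob/ob* array 1 was the lowest of its genotype for 28 of the 32 genes (87.5%), against 34.3% of all genes, and *ob/ob* array 3 the highest for 21 (65.6%, against 40.9% of all genes). Among the *ob/ob/Fsp27-/-* arrays, array 1 was the lowest for 24 genes (75.0%, against 36.0%) and array 3 the highest for 22 (68.8%, against 28.2%). The mean of the 32 genes was 8.85, 9.11 and 9.22 on the *ob/ob* arrays and 9.95, 10.08 and 10.12 on the *ob/ob/Fsp27-/-* arrays. The SD was larger in *ob/ob* for 23 of the 32 genes, with a median of 0.216 against 0.123 in *ob/ob/Fsp27-/-* mice. Over all genes the median SD was 0.107 with and 0.120 without Fsp27. The 8 genes with an SD above 0.3 in *ob/ob* were *Cpt2*, *Acads*, *Acad9*, *Acad11*, *Echs1*, *Decr1*, *Acaa2* and *Acat1*, and in *ob/ob/Fsp27-/-* mice only *Mlycd* exceeded it. Without *ob/ob* array 1, 27 genes were still called higher, with a median log2 fold change of 0.92.

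Markers of some cell types differed between the genotypes, and the adipocyte markers also followed the array order of the 32 genes. Of the 16 measured adipocyte markers, 10 were higher and none was lower, and the median difference was 0.84. The adipocyte list mean was 10.76, 11.28 and 11.49 on the *ob/ob* arrays and 11.94, 11.97 and 12.03 on the *ob/ob/Fsp27-/-* arrays and, as for the mean of the 32 genes, array 1 was the lowest and array 3 the highest in both genotypes. *Lpl*, *Car3*, *Fabp4* and *Lep* were not called, with log2 fold changes of 0.07, 0.53, 0.32 and −0.22, whereas 10 of the other 12 were higher, by 0.69 (*Aqp7*) to 2.17 (*Lipf*). The number of adipocyte markers called higher was 6 without *ob/ob* array 2 and 5 without *ob/ob/Fsp27-/-* array 2 or 3. Among 20 macrophage markers there were 17 lower and no higher ones, and the macrophage list mean ranged from 9.63 to 9.83 in *ob/ob* and from 7.61 to 7.77 in *ob/ob/Fsp27-/-* mice. Among them *Lyz2*, *Gpnmb*, *Cd68* and *Adgre1* had log2 fold changes of −1.82, −4.33, −2.68 and −3.21. Of 12 stromal cell markers 7 were lower, and of 10 endothelial markers 5 were higher, or 3 without *ob/ob/Fsp27-/-* array 2 and 8 with the arrays centred on housekeeping genes. No lymphocyte, mesothelial, muscle or epididymis marker was called, out of 11, 8, 12 and 10 measured. Lists without calls still varied between arrays. The lymphocyte list mean was 5.88, 5.81 and 5.51 on the *ob/ob* arrays and 5.50, 5.86 and 6.06 on the *ob/ob/Fsp27-/-* arrays. On the latter *Ms4a1*, a lymphocyte marker, read 5.04, 6.18 and 7.19. *Krt8* of the mesothelial list read 8.84, 6.92 and 6.15 there, and *Adam7* of the epididymis list 5.90, 4.03 and 4.00. Among 17 brown and beige adipocyte markers there were 7 higher and no lower ones. *Ebf2* and *Otop1* were not called (0.43 and 0.28), and *Kcnk3* and *Cox8b* were higher (1.24 and 3.99). The uncoupling protein *Ucp1* was not called (0.40, limma adjusted p = 0.415). Its means of 5.41 ± 0.617 (SD) in *ob/ob* and 5.81 ± 0.412 (SD) in *ob/ob/Fsp27-/-* mice both lay below the median of all values. *Elovl3*, a fatty acid elongase, had the largest log2 fold change of that list (5.97). The part of these cell types in the increases was not tested.

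**Figure D3:**
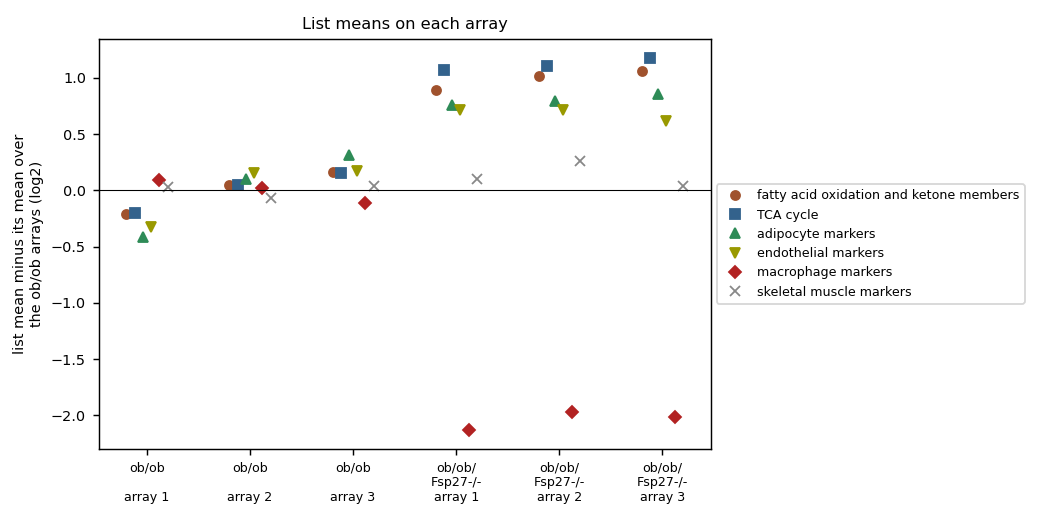
Mean RMA value of each gene list on each array, minus the mean of the same list over the *ob/ob* arrays (log2), with 1 symbol per array. The fatty acid oxidation, TCA cycle, adipocyte and endothelial lists are lowest on *ob/ob* array 1 and higher on all *ob/ob/Fsp27-/-* arrays, the macrophage list is lower there (7.61 to 7.77 against 9.63 to 9.83 before subtraction), and the muscle list stays near 0.

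Centring on the adipocyte markers of the same array, which was chosen after the data were seen and whose list includes *Cidec*, takes 0.81, the increase of their mean, from the difference of every gene alike, and leaves the order of the genes as it was. The mean of the 32 genes minus the mean of the adipocyte markers was −1.91, −2.17 and −2.27 on the *ob/ob* arrays and −1.98, −1.89 and −1.91 on the *ob/ob/Fsp27-/-* arrays, and these values overlap. On this scale the median change was 0.20 for the 32 genes and −0.75 for all genes. The *ob/ob/Fsp27-/-* arrays lay above all *ob/ob* arrays for 16 of the 32 genes, below them for 5, and overlapped for 11, while over all genes 2.29% lay above and 82.7% below. *Acadvl* read −2.88, −3.32 and −3.20 on the *ob/ob* arrays and −1.91, −1.65 and −1.71 on the *ob/ob/Fsp27-/-* arrays relative to the markers, without overlap, and *Cpt1a* read −0.09, −0.76 and −1.11 against −1.83, −1.78 and −1.76.

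The supply of fatty acids to the mitochondrion was mixed, with 4 of 15 measured genes higher and 3 lower, or 7 higher with the arrays centred on housekeeping genes. *Slc25a20*, which exchanges acylcarnitine for carnitine across the inner membrane and links Cpt1 to Cpt2, had a log2 fold change of 1.64 (SE 0.106, limma adjusted p = 0.000105). *Acsf2*, an acyl-CoA synthetase of mitochondria, rose by 1.12, and the fatty acid transport proteins *Slc27a1* and *Slc27a4* by 0.80 and 0.61. The acyl-CoA synthetases *Acsl5* and *Acsl4* had log2 fold changes of −1.57 (SE 0.117) and −0.75 (SE 0.198), and *Acbd3* −0.61. *Acsl1* and *Acsl3* had no probeset of their own. None of 7 measured genes of carnitine synthesis and other carnitine transport was called.

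Of 10 measured genes of malonyl-CoA and AMPK control, 3 were higher and none was lower. *Acacb*, the acetyl-CoA carboxylase on the outer mitochondrial membrane, whose malonyl-CoA acts on Cpt1, rose from 7.77 ± 0.481 (SD, n = 3) to 10.25 ± 0.190 (SD, n = 3), by 2.48 (SE 0.234, limma adjusted p = 0.000390). *Acaca*, the cytosolic carboxylase of fatty acid synthesis, rose by 1.41 (SE 0.296), and *Prkaa2*, a catalytic subunit of the AMP-activated kinase that inhibits both carboxylases, by 1.34 (SE 0.257). The other 7 were not called, among them *Prkaa1* (log2 fold change −0.09).

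Of 20 further enzymes that handle acyl-CoA, 17 were higher and none was lower, with a median log2 fold change of 1.22. Their list is labelled mitochondrial, and the place of each enzyme in the cell was not checked. *Eci3*, *Echdc3*, *Pccb* and *Ivd* had the largest increases, with log2 fold changes of 1.90, 1.59, 1.56 and 1.53. Pccb belongs to propionyl-CoA carboxylase, which uses the product of odd-chain oxidation, and Ivd is a dehydrogenase of leucine breakdown. In the peroxisome, where very long and branched chains are shortened, 12 of 18 measured genes were higher and none was lower, with a median of 0.80. *Hacl1*, which acts in alpha-oxidation, *Acaa1b*, a thiolase, *Ehhadh*, the bifunctional enzyme, and *Pecr* had log2 fold changes of 2.29, 1.90, 1.70 and 1.63. All 17 measured genes of the TCA cycle, which takes up the acetyl-CoA, were higher, with a median of 1.09, led by *Suclg1*, *Sdhb*, *Fh1* and *Idh3g* (1.62, 1.37, 1.34 and 1.33).

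The genes of ketone synthesis, transport and cytosolic use showed 2 of 7 higher and 1 lower. *Slc16a1*, the monocarboxylate transporter that carries ketone bodies and lactate, rose by 1.33 (SE 0.129, limma adjusted p = 0.000433), and *Aacs*, which activates acetoacetate in the cytosol, by 1.10 (SE 0.144). *Slc16a6*, another transporter of this family, had a log2 fold change of −0.90 (SE 0.148).

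Among 20 regulators of fatty acid oxidation there were 11 higher and no lower ones, and the median difference was 0.62. *Ppara*, the nuclear receptor that turns on many of the enzymes above, had a log2 fold change of 2.42 (SE 0.272), and its coactivators *Ppargc1a* and *Ppargc1b* 1.88 (SE 0.127) and 1.73 (SE 0.106). *Ppargc1a* rose from 5.89 ± 0.236 (SD, n = 3) to 7.77 ± 0.0756 (SD, n = 3), with its *ob/ob* mean below the median of all values. *Rxrg*, a partner receptor, had a log2 fold change of 1.58 (SE 0.251). *Pparg*, the receptor that defines adipocytes, was not called (0.33, limma adjusted p = 0.145). Of 12 other known PPAR target genes, 4 were higher and none was lower, with a median of 0.14. The 4 were *Cidea* (3.07), the uncoupling protein homologue *Ucp3* (2.25), the droplet protein *Plin5* (1.96) and *Pdk4* (1.16), a kinase that shuts off pyruvate dehydrogenase. *Angptl4* and *Plin2* had log2 fold changes of −0.38 and −0.07 and were not called.

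**Figure D4:**
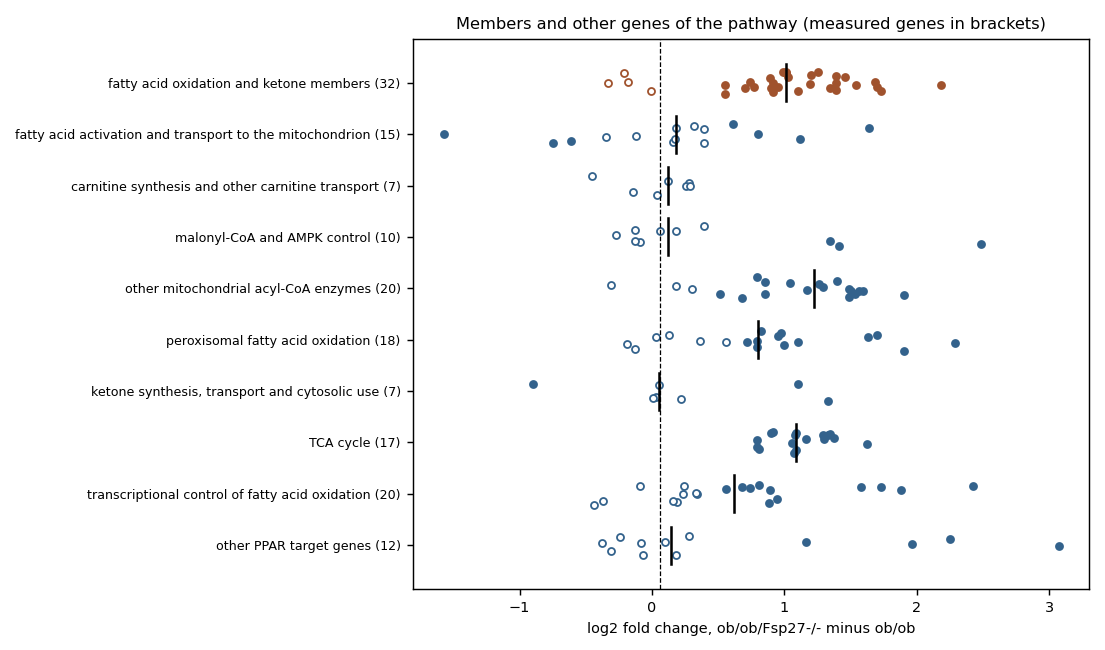
Log2 fold change of the 32 measured genes (brown) and of 9 lists of other genes of the pathway (blue), with 1 point per gene, filled where called, a bar at the median of each list and a dashed line at the median of all genes (0.0577). The medians of the 32 genes (1.01), of the list labelled other mitochondrial acyl-CoA enzymes (1.22) and of the TCA cycle (1.09) lie near 1. Those of the supply, carnitine, malonyl-CoA, ketone and PPAR target lists lie near the median of all genes.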

How the data were processed

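GWAT RNA was hybridised to GeneChip Mouse Gene 1.0 ST arrays. The deposited values are log2 values, which the authors made with background adjustment, quantile normalization and summary per transcript cluster by RMA, whose version is not given in the sources used here. Of 34760 probesets, the 22961 with at least 1 gene symbol were tested. Symbols were brought up to date by Entrez number for 21553 of the 21640 probesets with 1 symbol, and the probeset with the highest mean stood for a gene. The study's filter, which kept probesets detected above background, was left out here.

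The test was limma 3.58.1 under R 4.3.3 (lmFit and eBayes without covariates), Benjamini-Hochberg adjustment and the study's thresholds. The procedure was tested on simulated data. Pairs of genes were compared by exact permutation with scipy 1.17.1, and figures were drawn with matplotlib 3.10.9. The genes and lists were chosen with earlier results of these data known and are described by counts and medians without set tests. Named were all listed genes, up to 4 called genes per list and direction, genes at fixed steps (*Slc25a20*, *Ppara*, *Ppargc1a*, *Acaca*, *Acacb*, with others not reported here), *Cidec* and up to 4 markers per cell type by *ob/ob* level, which served only to pick names. *Acsl1* and *Acsl3*, which have no values, were added. *Acot1*, *Adam7*, *Angptl4*, *Aqp7*, *Elovl3*, *Krt8*, *Lipf*, *Ms4a1*, *Pparg*, *Plin2*, *Prkaa1* and *Ucp1* were named after their values were seen. Promoter windows came from RefSeq (GRCm38.p6).

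Alternatives were filters on low values, all probesets, other scalings, variance models and fold thresholds, averaging the probesets of a gene, and leaving out each array. An array has no read depth, and 3 arrays per genotype limit the precision. The labels give no hybridisation batch, and since the methods give each array its own pool of 3 mice, p-values measure the spread between pools, not between single animals.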

Additional observations from a re-analysis of the deposited data

How the results depend on the processing

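Under the planned filters, scalings and variance models, 28 genes were called higher and 0 lower, and the filters on the 30th percentile and the median left *Bdh1* out. Leaving out each array in turn gave 26 to 28 higher and 0 lower, with a median log2 fold change from 0.92 to 1.12. The number called higher was 17 at a log2 fold change of at least 1, against 3.27% of all genes. Without a fold threshold 28 were higher, against 14.7% of all genes, and 1 gene, *Cpt1a*, was lower. The share of all genes lower without a fold threshold is not given here. Centring the arrays on 12 housekeeping genes moved the median of the 32 genes to 1.20 and that of all genes to 0.246, and turned the signs of *Acot9* (0.01) and *Bdh1* (0.17). These housekeeping genes changed by −0.19 on average, and they include *Gusb* (−2.14) and the TCA cycle gene *Sdha* (1.07). Without *Gusb* their average change was −0.01, so nearly all of this shift came from that gene. The sign of *Bdh1* also turned without *ob/ob* array 1 (0.04) and without *ob/ob/Fsp27-/-* array 1 (0.09), over a range from −0.11 to 0.09, that of *Eci1* minus *Eci2* without *ob/ob/Fsp27-/-* array 2 (range −0.06 to 0.12), and that of *Etfa* minus *Etfb* without *ob/ob* array 1 (range −0.24 to 0.04). The share of all genes called higher was 16.7% under the housekeeping centring and 16.0% under the median filter, which also called 17.1% lower. Centring on the adipocyte markers, added after the data were seen, gave a median of 0.20, with 9 genes higher and 4 lower. In that fit every gene had the same standard error of 0.275, so its calls follow the size of the change alone, and 1.39% of all genes were higher and 76.8% lower. The log2 fold changes were negative for *Acadm* (−0.26), *Acad8* (−0.25), *Acot13* (−0.10), *Acad10* (−0.07) and *Slc22a5* (−0.03). No paired analysis was possible because the array numbers in the labels are not shared between the genotypes.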

Other observations

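Of the genes that were higher, *Acad8*, *Acadsb*, *Acad10* and *Etfdh* have a promoter window that overlaps that of a gene outside the pathway. The first 3 are described here, chosen after the windows were seen, and the neighbour of *Etfdh*, *4930579G24Rik*, was not analysed here. The annotated starts of *Acad8* and *Thyn1* lie 128 bases apart, those of *Acadsb* and *Ikzf5* 123, and the nearest pair of starts of *Acad10* and *Brap* 53. *Acad8*, *Acadsb* and *Acad10* had log2 fold changes of 0.55, 1.39 and 0.74. Their neighbours *Thyn1*, *Ikzf5* and *Brap* had log2 fold changes of −0.02, 0.00 and 0.02 and were not called, with adjusted p from 0.868 to 0.98 (limma). *Thyn1* read 8.06, 8.07 and 8.11 in *ob/ob* and 8.05, 7.95 and 8.18 in *ob/ob/Fsp27-/-* mice. Each of these pairs held a gene that passed the test and a gene that did not. Over all genes 20.4% were called, so a neighbour that is not called is the usual case. Differences within the pairs were not tested. In the head-to-head pair *Hadha* and *Hadhb*, which are both on the list described here, both passed.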
